A study of Mus musculus with 4 samples.

Results

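The core circadian clock genes were followed in nuclei of mouse cortex in pregnancy. The set was chosen by gene symbol and held 10 of the 33696 genes in the deposited matrices, namely Clock, Npas2, Per1, Per2, Per3, Cry1, Cry2, Nr1d1, Nr1d2 and Dbp. Single-nucleus RNA sequencing, which counts RNA molecules in isolated nuclei by unique molecular identifiers (UMIs), was run on 4 cortex libraries. There were 2 libraries from pregnant females taken at E13.5 (days of gestation) of a timed mating, set against 2 from non-pregnant control females. All were from wildtype C57BL/6JRj mice, an inbred strain, at about 12 weeks of age, with no transgene or drug given in the labels. Whether a library is 1 animal, the part of the cortex and the hour of the day at which animals were killed are not given in the sources used here. Nuclei were prepared on ice in buffers with actinomycin D, a blocker of transcription, per the labels' protocols. P-values measure the spread between these libraries, which may be technical in part.

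The circadian clock is a loop of transcription that runs in most cells of the body, neurons and glia included. CLOCK, or its relative NPAS2, pairs with BMAL1 and binds E-boxes in target genes, among them Per, Cry and Nr1d genes and Dbp. PER and CRY proteins then return to the nucleus and block that activator, the REV-ERB proteins made from Nr1d1 and Nr1d2 repress Bmal1 and Npas2, and DBP acts on D-boxes in further genes. In a tissue sampled around the day, Per and Dbp RNA is highest at hours when Bmal1 and Npas2 RNA is low. Per1 and, more weakly, Per2 are in addition induced within the hour by signals that raise cAMP or calcium, as the early genes Fos and Arc are.

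The 4 libraries held 26816 barcodes and between 97875766 and 116860425 UMIs each, with a median of 13187.5 to 17723 UMIs per barcode, the highest in non-pregnant replicate 2. After filtering, 25033 nuclei were left, 6228 and 6353 from the pregnant and 6503 and 5949 from the non-pregnant libraries. Any pair of libraries shared between 20 and 31 cell barcodes. Nuclei were clustered without regard to group, clusters were named by their resemblance to marker lists, and none of the 10 clock genes was among the 2000 variable genes used for clustering. UMIs were summed over all nuclei of a library, over its excitatory and inhibitory neurons, and over 16 sets of nuclei, 15 named cell types and 1 unnamed cluster of neurons, that each reached 50 nuclei per library. Another 3 clusters were nearly limited to pregnancy (382 and 432 nuclei in pregnant libraries, 13 and 0 in non-pregnant libraries). Leaving out these and the other clusters given no cell class called none of the 10 genes in all nuclei either. The same held on also leaving out an excitatory cluster with no type name, a setting chosen after seeing the data. That cluster had 557 and 412 nuclei in pregnant and 140 and 15 in non-pregnant libraries. Levels are given as CPM, the UMIs of a gene divided by all UMIs of the sum and multiplied by 1e6. CPM were not divided by gene length and are compared between libraries and cell types, not between genes.

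One library stood apart in genes that bear on the clock. The 10 activity-induced genes on a list of early genes summed to 255.4 and 259.1 CPM in pregnant replicates 1 and 2, against 341.3 CPM in non-pregnant replicate 1 and 64.96 CPM in non-pregnant replicate 2. Fos, the best known of them, had 16.2 CPM in both pregnant libraries, 22.9 CPM in non-pregnant replicate 1 and 0.718 CPM in non-pregnant replicate 2. All 10 genes of the list, and the summed list in all 16 clusters or cell types, were lowest in non-pregnant replicate 2. This library was also the most deeply sequenced, and group comparisons of clock genes that change without it are given both ways.

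Of the 10 clock genes, 9 had a promoter in the RefSeq table used here (build GRCm38.p6, 250 bases before to 50 bases after a start), with 12 starts in all, and Per2 is named only. Promoters were searched on both strands for 4 short motifs, the E-box CACGTG that CLOCK and NPAS2 bind with BMAL1, the D-box TTANGTAA that DBP binds, the ROR element that the REV-ERB proteins bind and the cAMP response element TGACGTCA. An E-box was found in the windows of Per1 and Cry1, against 7.15% of all 32851 promoters, and a D-box in that of Per3, against 2.32%. The ROR element, in 0.606% of all promoters, and the cAMP response element, in 1.79%, matched none of the 12 windows. The 3 windows with a match are shown because they hold the E-box and D-box matches, with each match in capitals. They lie at chr11:69098699-69098998 on the plus strand (Per1, the more upstream of its starts, E-box beginning 166 bases before the start), chr10:85185005-85185304 on the minus strand (Cry1, E-box 60 bases before) and chr4:151044616-151044915 on the minus strand (Per3, D-boxes 205 and 158 bases before).
Per1: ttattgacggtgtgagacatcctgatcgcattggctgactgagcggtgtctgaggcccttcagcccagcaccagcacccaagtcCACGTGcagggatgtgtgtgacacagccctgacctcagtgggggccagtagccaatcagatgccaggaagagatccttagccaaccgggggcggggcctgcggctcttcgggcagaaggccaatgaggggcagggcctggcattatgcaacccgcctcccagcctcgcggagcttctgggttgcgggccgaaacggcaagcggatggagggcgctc
Cry1: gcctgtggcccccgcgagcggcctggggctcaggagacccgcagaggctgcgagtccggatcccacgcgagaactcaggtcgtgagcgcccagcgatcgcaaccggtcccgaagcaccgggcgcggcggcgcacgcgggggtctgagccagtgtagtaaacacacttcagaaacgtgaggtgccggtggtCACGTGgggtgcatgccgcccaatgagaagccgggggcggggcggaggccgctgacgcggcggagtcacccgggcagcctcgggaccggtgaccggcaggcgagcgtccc
Per3: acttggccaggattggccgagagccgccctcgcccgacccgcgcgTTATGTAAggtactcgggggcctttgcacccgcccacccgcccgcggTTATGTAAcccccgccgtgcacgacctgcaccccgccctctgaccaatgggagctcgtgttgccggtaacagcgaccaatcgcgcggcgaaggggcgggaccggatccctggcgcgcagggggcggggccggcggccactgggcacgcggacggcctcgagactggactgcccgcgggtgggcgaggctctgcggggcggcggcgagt
A match is a string of letters and says nothing of binding in these nuclei.

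The first question was whether clock genes differ in the cortex in mid-gestation. In the sums of all nuclei, none of the 10 clock genes was called by edgeR (quasi-likelihood F test, Benjamini-Hochberg adjusted p below 0.05 over 20915 genes), while 276 genes or 1.32% were. At an unadjusted p below 0.05 the count was also 0, and DESeq2 called 0. Their log2 fold changes, pregnant over non-pregnant, lay between -0.23 for Dbp and 0.13 for Per1, with a median size of 0.08 beside 0.12 over all tested genes, and their adjusted p lay between 0.414 and 0.971. In such sums a change in the mix of cells and a change of RNA within cells cannot be told apart. Clock, Per3 and Nr1d1 were lower and Npas2 and Nr1d2 higher in both pregnant libraries without overlap, 3 and 2 of the 10, beside 17% and 23.4% of all tested genes in those directions.

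Among the activators, Clock, the usual partner of BMAL1, had 127.8 and 135.4 CPM in the pregnant libraries, against 136.3 and 141.1 CPM in the non-pregnant. Npas2, which can stand in for Clock in the forebrain, had 191.1 and 189.4 CPM in pregnant libraries, against 187.1 and 163.3 CPM in non-pregnant libraries. In both genes the groups did not overlap, and the gap was small beside the level. The log2 fold changes were -0.09 (SE 0.0668) for Clock and 0.11 (SE 0.0850) for Npas2, with adjusted p of 0.664 and 0.690 by edgeR.

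Among the inhibitors, Per1 had 36.2 and 35.3 CPM in pregnant libraries, against 47.9 and 16.8 CPM in non-pregnant replicates 1 and 2. The pregnant pair lay close together between the non-pregnant libraries, which were far apart. Per2, its partner in the PER complex, had 42.7 and 37.2 CPM in pregnant libraries, against 50.5 and 32.5 CPM in non-pregnant libraries, in the same order. Per3, the third Period gene and a weak inhibitor, had 49.1 and 50.1 CPM in pregnant libraries, against 50.2 and 51.8 CPM in non-pregnant libraries, with little spread in either group. Cry1, the stronger of the cryptochrome repressors, had 27.2 and 24.0 CPM in pregnant libraries, against 27.5 and 21.3 CPM in non-pregnant libraries. Cry2, the other cryptochrome, had 120.8 and 129.6 CPM in pregnant libraries, against 146.2 and 112.9 CPM in non-pregnant libraries. For Per1, Per2, Cry1 and Cry2 non-pregnant replicate 1 was the highest of the 4 libraries and non-pregnant replicate 2 the lowest.

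Nr1d1, which encodes REV-ERB alpha, had 7.62 and 9.781 CPM in pregnant libraries, against 9.782 and 10.3 CPM in non-pregnant libraries. Nr1d2, which encodes REV-ERB beta, had 55.1 and 57.3 CPM in pregnant libraries, against 52.8 and 53.0 CPM in non-pregnant libraries. Dbp, the output gene, had 13.49 and 16.8 CPM in pregnant libraries, against 16.3 and 18.9 CPM in non-pregnant libraries. Dbp and Nr1d1 had the most negative fold changes of the 10 genes, -0.23 (SE 0.109, adjusted p = 0.414 by edgeR) and -0.22 (SE 0.118, adjusted p = 0.485), and in both genes pregnant replicate 1 was the lowest library.

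**Figure D1:**
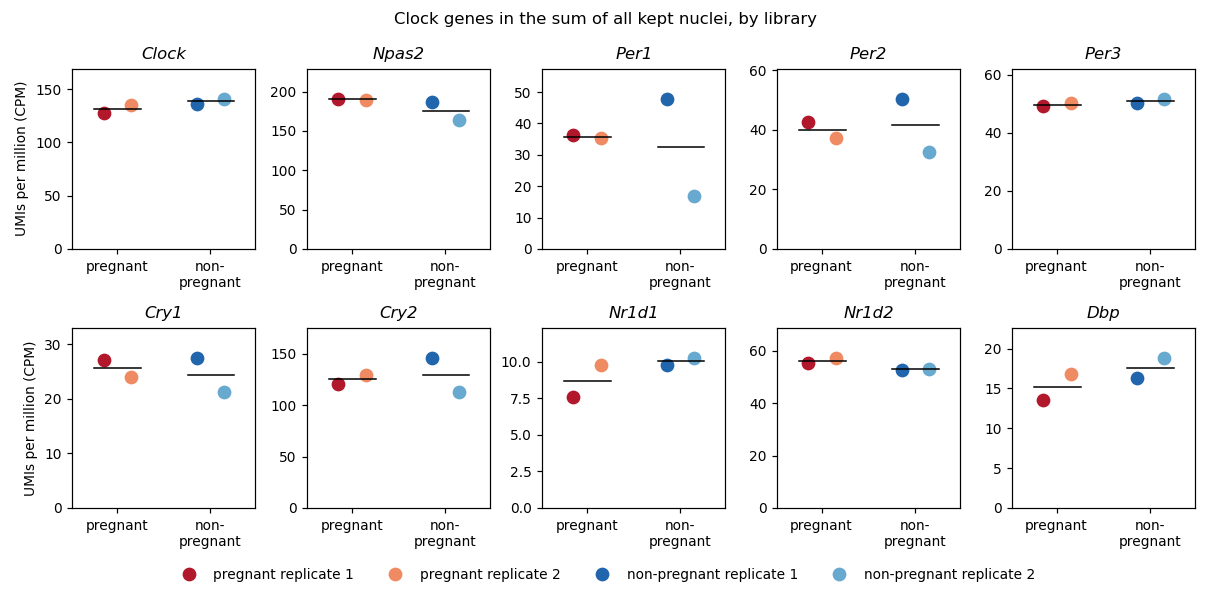
CPM of the 10 clock genes in the sum of all nuclei, 1 point per library (2 pregnant, 2 non-pregnant), with the group mean as a bar and axes from 0. Per1 runs from 47.9 CPM in non-pregnant replicate 1 to 16.8 CPM in non-pregnant replicate 2, with both pregnant libraries between them, while Per3 lies between 49.1 and 51.8 CPM in all 4 libraries.

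The direction of Per1 and Per2 rested on which non-pregnant library stood for its group. Without non-pregnant replicate 1, Per1 was higher in pregnancy (log2 fold change 1.07, SE 0.0888, adjusted p = 5.47e-25 by edgeR), and without non-pregnant replicate 2 it was lower (-0.44, SE 0.0850, adjusted p = 1.62e-05). Per2 turned in the same way, to 0.28 (SE 0.0864, adjusted p = 0.0220 by edgeR) without replicate 1 and to -0.35 (SE 0.0850, adjusted p = 0.00128) without replicate 2. Both fits leave a single non-pregnant library that is assumed to vary like the pregnant ones, and they call 8.83% and 6.55% of all genes. Cry1 (0.25 and -0.12) and Cry2 (0.13 and -0.24) changed sign with them and did not pass (adjusted p from 0.0639 to 0.597 by edgeR). Dbp passed without non-pregnant replicate 1 (-0.34, SE 0.0999, adjusted p = 0.0139) and not without replicate 2 (-0.13, adjusted p = 0.631). Clock, Npas2, Per3, Nr1d1 and Nr1d2 kept their sign and were not called without either non-pregnant library.

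**Figure D2:**
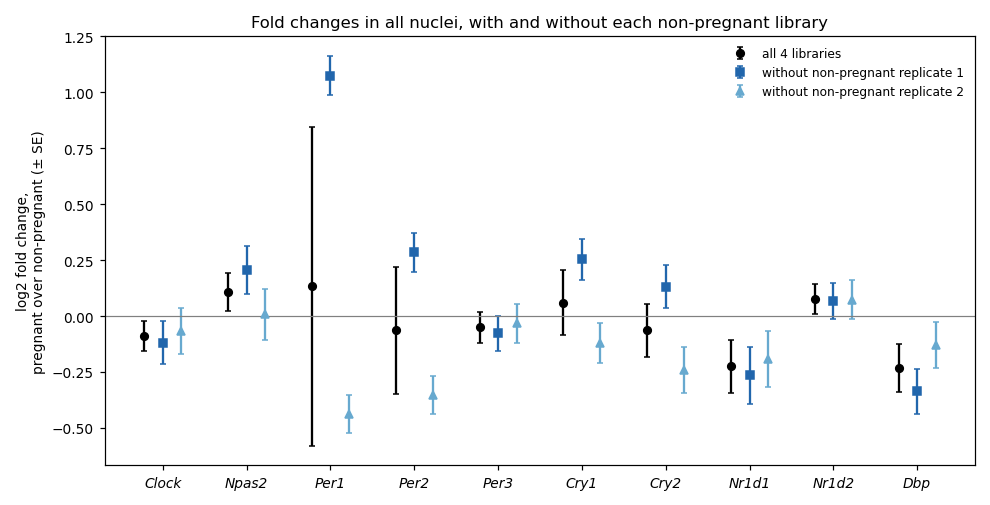
Log2 ratio of pregnant to non-pregnant libraries in all nuclei for each clock gene, with its standard error, from all 4 libraries and without each non-pregnant library in turn. Per1 stands at 0.13 with all libraries, at 1.07 without non-pregnant replicate 1 and at -0.44 without non-pregnant replicate 2, while Nr1d2 stands at 0.07 in each of them.

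The gap between the non-pregnant libraries was uneven over the loop. Per1 was lowest in non-pregnant replicate 2 in all 15 cell types or clusters where it was tested, and non-pregnant replicate 1 exceeded replicate 2 by 1.61-fold to 4.596-fold there, 2.82-fold at the median. In the same cell types the ratio of pregnant replicate 1 to replicate 2 ran from 0.791 to 1.60, with a median of 1.03. Per2 was higher in non-pregnant replicate 1 than in replicate 2 in all 15 cell types too, by 1.501-fold at the median, and Cry2 in 15 of 16, by 1.34-fold. For Clock, Nr1d2 and Dbp the median ratios were 0.964, 0.993 and 0.901. In all nuclei the Per1 gap was matched or passed by 0.255% of the 10973 genes with a mean of at least 5 CPM, and that of Per2 by 1.41%. The activity-induced genes, summed, were 5.10-fold higher in non-pregnant replicate 1 than in replicate 2 at the median of cell types, with a range of 2.70 to 7.41. Activity-induced genes and Per1 were low in the same library, and their part in the Per1 result was not tested.

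**Figure D3:**
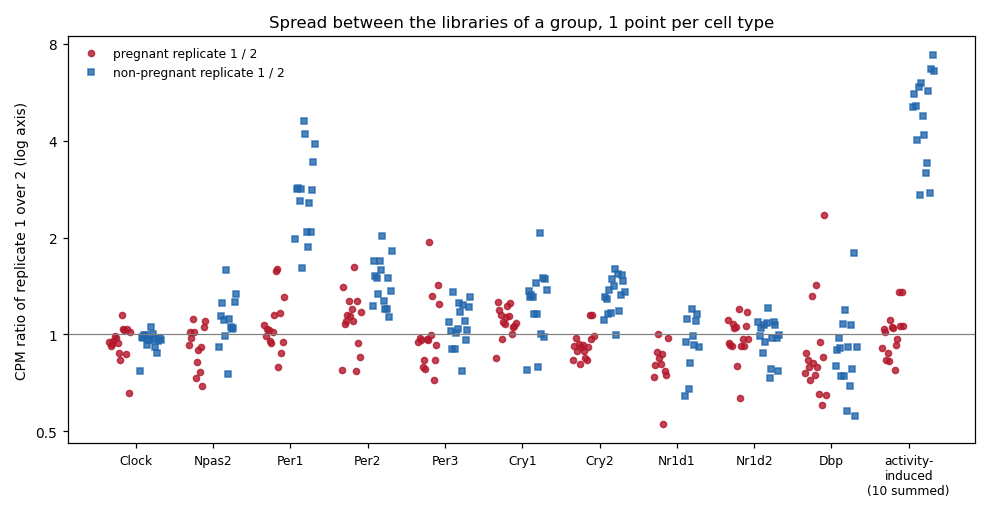
Ratio of CPM in replicate 1 over replicate 2 within the pregnant and the non-pregnant group, on a log axis, 1 point per cell type or cluster in which the gene was tested, for the clock genes and for 10 activity-induced genes summed. The non-pregnant ratios of Per1 lie between 1.61 and 4.596 and those of the activity-induced genes between 2.70 and 7.41, while the non-pregnant ratios of Clock lie between 0.767 and 1.05.

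The second question was whether the libraries differ in the phase of the clock. A phase-like index was taken as the mean log2(CPM + 1) of Per1, Per2, Per3 and Dbp minus that of Npas2 and Clock, so a higher index means more Per and Dbp RNA relative to the activators. In all nuclei it was -2.26 and -2.27 in pregnant libraries, against -2.06 and -2.44 in non-pregnant replicates 1 and 2. The pregnant libraries differed by 0.0107 and lay between the non-pregnant ones, which differed by 0.388. The group means differed by -0.0109, a value without a test, since 2 against 2 libraries cannot give an exact two-sided permutation p below 0.333. Leaving out non-pregnant replicate 1 gave a difference of 0.18, and leaving out replicate 2 gave -0.20.

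The genes inside the index did not move as a block. In all nuclei the mean log2(CPM + 1) of Per1 and Per2 spanned 1.04 over the 4 libraries, with the lowest value in non-pregnant replicate 2. That of Per3 and Dbp spanned 0.26, with the highest value, 5.02, in non-pregnant replicate 2. That of Npas2 and Clock spanned 0.076, and that of Nr1d1 and Nr1d2 0.19. Non-pregnant replicate 2 was thus low in Per1 and Per2 and not low in Per3, Dbp, Nr1d1 or Nr1d2.

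By cell type, the index was lowest in non-pregnant replicate 2 in 10 of 16 types or clusters and highest in non-pregnant replicate 1 in 10 of 16. The group means were higher in pregnancy in 7 and lower in 9. In 12 of the 16 the group difference was smaller than the gap between the non-pregnant libraries. Astrocytes had -0.61 and -0.51 in pregnant libraries, against -0.62 and -1.14 in non-pregnant libraries, and L6 CT neurons had -1.90 and -2.06 in pregnant libraries, against -1.52 and -2.36 in non-pregnant libraries. Microglia differed from most neurons in their order, with -0.84 and -0.67 in pregnant libraries, against -0.055 and 0.29 in non-pregnant libraries, and their Npas2 counts were 9 and 2 UMIs in pregnant and 1 and 0 UMIs in non-pregnant libraries. Oligodendrocytes had -0.02 and -1.26 in pregnant libraries, against -0.08 and -0.24 in non-pregnant libraries. Their Npas2 counts were 3 and 15 UMIs in pregnant and 2 and 2 UMIs in non-pregnant libraries. The index gives no hour, and time of collection and group cannot be told apart from these labels.

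**Figure D4:**
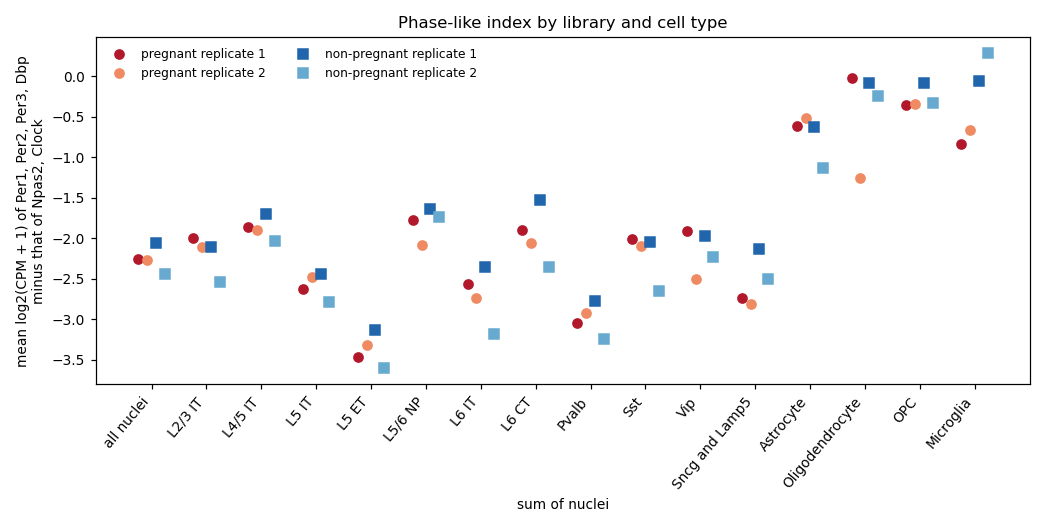
Phase-like index (mean log2(CPM + 1) of Per1, Per2, Per3 and Dbp minus that of Npas2 and Clock) in each library, for all nuclei and 15 named cell types. In all nuclei both pregnant libraries, at -2.26 and -2.27, lie between non-pregnant replicate 1 at -2.06 and replicate 2 at -2.44, and most neuron types show non-pregnant replicate 2 lowest.

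The clock genes differed widely between cell types in level, in the 15 named types tested. The types are clusters of the same nuclei, so these levels are a description with no test. Levels are means over the 4 libraries with their SD. Astrocytes, the glia that support synapses and vessels, had the highest mean of 7 of the 10 genes among these types. The 9 astrocyte markers behind that name summed to between 14449 and 14975 CPM there, against 536 CPM in the rest, and all 9 were higher than in the rest.

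Dbp had 87.3 ± 13.8 CPM in astrocytes, against 20.1 ± 5.29 CPM in microglia, the next type, and 8.90 ± 0.543 CPM in Pvalb interneurons, the lowest. The ranges of astrocytes and microglia did not overlap, and 13 of the 14 neighbouring types in the order of Dbp did. Per3 had 159.2 ± 11.0 CPM in astrocytes, against 65.0 ± 7.52 CPM in oligodendrocyte precursors, and its lowest level, 9.02 ± 1.42 CPM, in L5 ET neurons, the layer's long-range output cells. The range of Per3 in L5 ET neurons, 7.43 to 10.4 CPM, lay below that in every other named type, and in L5 IT neurons of the same layer Per3 had 46.9 and 56.2 CPM in pregnant libraries, against 54.7 and 60.5 CPM in non-pregnant libraries. Cry2 had 248.1 ± 25.7 CPM in astrocytes and 21.1 ± 5.48 CPM in microglia. Nr1d1 had 32.4 ± 7.30 CPM in astrocytes, against 13.0 ± 2.52 CPM in L4/5 IT neurons, the next type, also without overlap. Nr1d2 had 123.7 ± 21.3 CPM in astrocytes and 92.4 ± 17.1 CPM in microglia, and these ranges overlapped.

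The activators ran in other directions. Clock was lowest in astrocytes, at 64.1 ± 7.12 CPM, and highest in oligodendrocytes, the myelinating glia, at 208.6 ± 19.9 CPM, and neither range overlapped that of the neighbouring type. Npas2 was highest in L6 IT neurons, at 330.0 ± 20.9 CPM, with L5 IT neurons at 296.6 ± 18.8 CPM and L5 ET neurons at 278.4 ± 36.2 CPM, whose ranges overlapped. Astrocytes held Npas2 at 271.3 and 293.4 CPM in pregnant libraries, against 259.7 and 284.1 CPM in non-pregnant libraries. It was near 0 in microglia (12 UMIs in all), oligodendrocytes (22 UMIs) and precursors (26 UMIs), which are below the filter of the test. Astrocytes thus paired high Npas2 with low Clock, and oligodendrocytes high Clock with Npas2 near 0.

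Per1 and Per2 had wide ranges over libraries, and all 14 pairs of neighbours in the order of each overlapped. Per1 lay between 50.6 ± 14.5 CPM in astrocytes and 10.2 ± 5.63 CPM in oligodendrocyte precursors, and Per2 between 64.1 ± 17.7 CPM in astrocytes and 8.53 ± 4.37 CPM in microglia. Precursors were near the top for Per2, at 63.9 ± 6.72 CPM, and lowest for Per1. Among the 15 types Cry1 was highest in L4/5 IT neurons, at 33.9 ± 4.48 CPM, and all its neighbours overlapped as well. Endothelial and mural nuclei, too few to test (65 and 53 in pregnant, 26 and 32 in non-pregnant libraries), held Dbp at 133.7 and 191.5 CPM in pregnant libraries, against 185.9 and 158.2 CPM in non-pregnant libraries, above the range of 73.7 to 104.2 CPM in astrocytes. Nr1d2 had 207.5 and 145.3 CPM there in pregnant libraries, against 247.9 and 249.5 CPM in non-pregnant libraries, on 59 and 44 UMIs in pregnant and 20 and 41 UMIs in non-pregnant libraries. Per2 had 87.9 and 82.5 CPM in pregnant libraries, against 111.5 and 85.2 CPM in non-pregnant libraries, and Cry1 had 52.8 and 36.3 CPM in pregnant libraries, against 74.4 and 54.8 CPM in non-pregnant libraries. Nr1d1 had 52.8 and 56.1 CPM in pregnant libraries, against 24.8 and 36.5 CPM in non-pregnant libraries, and Per1 had 31.7 and 42.9 CPM in pregnant libraries, against 136.3 and 79.1 CPM in non-pregnant libraries. These 5 genes rest on between 2 and 59 UMIs per library, and the means of these nuclei were above those of the highest of the 15 types for each.

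**Figure D5:**
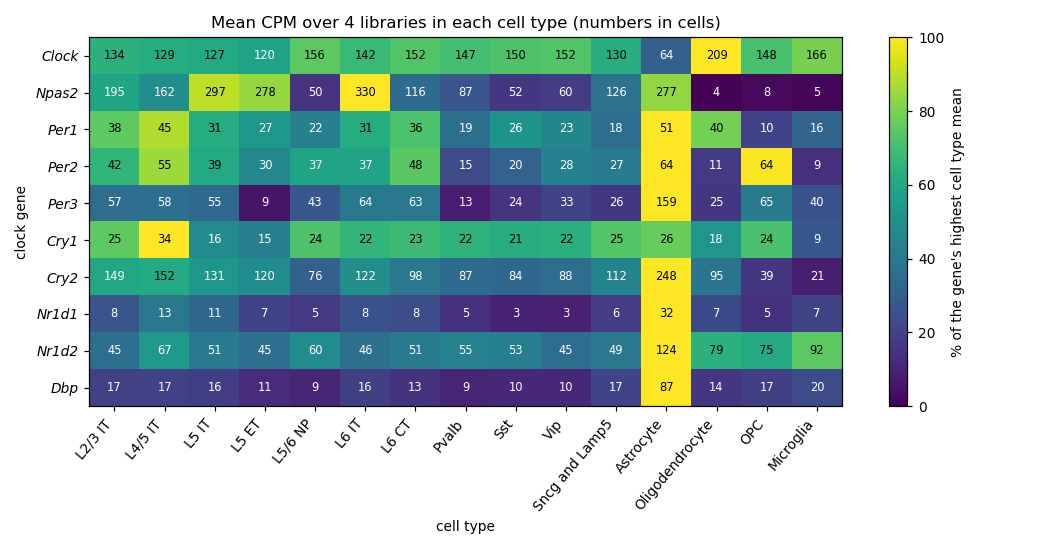
Mean CPM over 4 libraries of each clock gene in 15 named cell types (numbers), coloured by percent of that gene's highest type, so that colours compare types within a gene. Astrocytes hold the highest level of 7 genes among the types shown, Dbp at 87.3 CPM and Per3 at 159.2 CPM among them, while Clock is lowest there, at 64.1 CPM.

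By Pearson's r of mean log2(CPM + 1) over the 15 types, among 9617 genes with a mean of at least 10 CPM, the patterns most like Dbp were those of Prodh (0.951) and Ranbp3l (0.929). For Nr1d1 they were Aldh1l1 (0.923), a common astrocyte marker, and Cpeb4 (0.881), and for Npas2 Actr3b (0.952) and Tenm3 (0.945). Per2 was most like Tpd52l1 (0.943) and Ncan (0.926), Nr1d2 like Nrf1 (0.940) and Fbxo4 (0.925), Clock like Abcg1 (0.919) and Slc38a2 (0.886), and Cry2 like Fam171a1 (0.919) and Cystm1 (0.885). Per1 (Rasl11b 0.819, Grm3 0.805), Per3 (Kbtbd11 0.831, Mmd2 0.829) and Cry1 (Gm47512 0.847, Ift122 0.823) had looser matches. Within the set, Dbp and Nr1d1 were nearest to each other (0.858), and Clock had a negative r with each of the other 9 genes. The types share libraries and depth, and these are descriptions across types with no test.

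Within cell types, 149 of 160 pairs of clock gene and type or cluster passed the filter on low counts, and 1 pair was called, beside 0.718% of all gene and type pairs. In 18 pairs both pregnant libraries lay above both non-pregnant ones and in 25 below, which are 12.1% and 16.8% of the pairs, beside 20.6% and 17.3% of all tested gene and type pairs. At an unadjusted p below 0.05 there were 20 pairs, 13.4% of the 149, beside 8.68% of all gene and type pairs, and DESeq2 called 0. Without non-pregnant replicate 1 the count was 18, of which 9 were Per1 and 2 were Per2 (3.4% of all pairs called), and without non-pregnant replicate 2 it was 7, with 3 of Per1 and 2 of Per2 (1.69%).

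The single call was Npas2 in L5/6 NP neurons, a deep-layer class with mostly local axons, where L5/6 NP as a whole had 3.38% of genes called. Npas2 had 55.5 and 75.9 CPM (116 and 190 UMIs) in pregnant libraries, against 42.1 and 26.6 CPM (53 and 27 UMIs) in non-pregnant libraries, a log2 fold change of 0.93 (SE 0.215, adjusted p = 0.00972 by edgeR). The pregnant libraries held a subset of 11 and 28 of these nuclei that had no counterpart among the non-pregnant nuclei, with a mean doublet score of 0.893, above the limit of 0.8 taken as doublet-like, and 160.2 and 234.7 CPM of Npas2. In that subset the 8 L5/6 NP markers summed to 407 and 589 CPM with 4 and 2 of them at 0, and the 9 oligodendrocyte markers to 4102 and 3016 CPM with none at 0. In the other L5/6 NP nuclei the L5/6 NP markers summed to 6191 and 6266 CPM in pregnant libraries, against 5148 and 5402 CPM in non-pregnant libraries, and the oligodendrocyte markers to 52.9 and 177.1 CPM in pregnant libraries, against 62.7 and 123.1 CPM in non-pregnant libraries. Without the subset, a setting chosen after seeing the data, Npas2 had 43.3 and 26.2 CPM in pregnant libraries, against 42.1 and 26.6 CPM in non-pregnant libraries, and the log2 fold change was 0.017 (SE 0.266, adjusted p = 0.997 by edgeR, beside 1.45% of genes called). The call was also lost without non-pregnant replicate 2 (adjusted p = 0.0834) and without pregnant replicate 2 (adjusted p = 0.153).

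Besides Npas2 in L5/6 NP, the pairs with the smallest unadjusted p were Npas2 in Sncg and Lamp5 neurons (log2 fold change 0.40, adjusted p = 0.369 by edgeR), Dbp and Nr1d1 in L4/5 IT neurons (-0.45 and -0.48, adjusted p = 0.3504 and 0.366) and Per2 in astrocytes (0.58, adjusted p = 0.295). In the sum of excitatory neurons Nr1d1 had 7.25 and 8.78 CPM in pregnant libraries, against 10.6 and 10.9 CPM in non-pregnant libraries (log2 fold change -0.44, SE 0.114, adjusted p = 0.120 by edgeR). Dbp had 12.1 and 14.8 CPM in pregnant libraries, against 16.3 and 18.3 CPM in non-pregnant libraries (-0.38, SE 0.108, adjusted p = 0.151). In both genes the 2 pregnant libraries were lower without overlap, as were 16.7% of the 19286 genes tested there, and neither passed, beside 1.36% of genes called. Without non-pregnant replicate 1 or 2, Nr1d1 had a log2 fold change of -0.46 or -0.42 and Dbp one of -0.47 or -0.29. Without pregnant replicate 1 or 2, Nr1d1 had a log2 fold change of -0.35 or -0.54 and Dbp one of -0.28 or -0.49. Each of these fits leaves a single library in 1 group. With no filter on low counts both passed (adjusted p = 0.0402 for Nr1d1 and 0.0434 for Dbp by edgeR). That setting also raised the count of genes called in all nuclei, to 624 from 276. The share it called in excitatory neurons is not given. In inhibitory neurons Nr1d1 had 4.54 and 5.09 CPM in pregnant libraries, against 3.98 and 3.34 CPM in non-pregnant libraries, and Dbp had 9.07 and 10.3 CPM in pregnant libraries, against 12.05 and 12.1 CPM in non-pregnant libraries. None of the 10 genes passed there, beside 0.291% of genes called.

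The third question was whether the pregnancy effect differed between cell classes. Against excitatory neurons, the effect was compared in inhibitory neurons, astrocytes, oligodendrocytes and microglia, with the library as a block. The filter on low counts was applied to the sums of both classes together. Npas2 was kept there, though it did not pass the filter within microglia or oligodendrocytes alone. Its differences in these types, with or without a library left out, thus rest on counts below that filter. No clock gene passed in any of the 4 contrasts, beside 1.16%, 0.732%, 0.974% and 0.602% of genes. The nearest was Npas2 in microglia (difference 3.88 in log2, SE 1.06, adjusted p = 0.0507 by edgeR), on 9 and 2 UMIs in pregnant and 1 and 0 UMIs in non-pregnant microglia, where 3 UMIs are worth 4.98 and 3.75 CPM in pregnant and 3.23 and 2.69 CPM in non-pregnant libraries. The 6 excitatory neuron markers summed to 465 and 456 CPM in pregnant microglia, against 375 and 245 CPM in non-pregnant microglia, with none at 0, and their part in the Npas2 counts was not tested. Without pregnant replicate 2 this contrast passed (adjusted p = 0.0180 by edgeR), and without pregnant replicate 1 it had an adjusted p of 1. Npas2 in oligodendrocytes (difference 2.19, SE 0.700, adjusted p = 0.120 by edgeR) passed without pregnant replicate 1 (adjusted p = 0.0167), on 3 and 15 UMIs in pregnant and 2 and 2 UMIs in non-pregnant libraries. For Nr1d1 the effect in inhibitory neurons exceeded that in excitatory neurons by 0.85 (SE 0.223, adjusted p = 0.0960 by edgeR). In astrocytes Per2 had 67.3 and 87.2 CPM in pregnant libraries, against 56.2 and 45.9 CPM in non-pregnant libraries, and its effect differed from that in excitatory neurons by 0.63 (SE 0.225, adjusted p = 0.286).

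The other genes of the pathway were read from lists. Of 14 partners of the clock none was called in all nuclei, with a median log2 fold change of -0.06 beside 0.01 over all genes. Bmal1 (listed as Arntl), the partner of CLOCK and NPAS2, had 74.8 and 84.8 CPM in pregnant libraries, against 80.8 and 89.6 CPM in non-pregnant libraries, and overlapped between groups. Bhlhe41, which encodes the repressor DEC2 that competes for E-boxes, was the 1 partner called in excitatory neurons, beside 1.36% of genes. It had 16.1 and 18.7 CPM in pregnant libraries, against 23.0 and 24.4 CPM in non-pregnant libraries (log2 fold change -0.47, SE 0.0899, adjusted p = 0.0451 by edgeR). It was called in no single cell type. In this sum too, the mix of cells and RNA within cells cannot be told apart. Without pregnant replicate 1 the log2 fold change of Bhlhe41 in excitatory neurons was -0.40 and without pregnant replicate 2 it was -0.54. The call was lost in both. The other 7 alternatives kept the call. In all nuclei Bhlhe41 had -0.35 (SE 0.0858, adjusted p = 0.0882 by edgeR) and passed under 6 of 12 alternatives, DESeq2 (adjusted p = 0.0437) among them.

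Its relative Bhlhe40 (DEC1) had 25.0 and 26.4 CPM in pregnant libraries, against 33.9 and 14.4 CPM in non-pregnant libraries. Ciart, a repressor in the loop, had 16.9 and 17.6 CPM in pregnant libraries, against 28.4 and 12.9 CPM in non-pregnant libraries. Nfil3, which opposes DBP at D-boxes, had 4.61 and 6.11 CPM in pregnant libraries, against 6.85 and 3.05 CPM in non-pregnant libraries. These 3 genes were ordered as Per1 was, with non-pregnant replicate 1 highest and non-pregnant replicate 2 lowest. Tef and Hlf, relatives of Dbp, showed no such gap: Tef had 120.3 and 124.1 CPM in pregnant libraries, against 128.2 and 126.1 CPM in non-pregnant libraries, and Hlf had 80.0 and 84.2 CPM in pregnant libraries, against 73.0 and 79.4 CPM in non-pregnant libraries. Hlf was called in L5 ET neurons alone among the types (log2 fold change 0.49, SE 0.116, adjusted p = 0.0228 by edgeR, beside 2.99% of genes). Under the alternatives Hlf kept this call in 6 and lost it in 4. Among the 4 were the fits without pregnant replicate 1 (log2 fold change 0.52), without pregnant replicate 2 (0.46) and by DESeq2 (0.50, adjusted p = 0.101).

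None of 11 kinases and ubiquitin enzymes of the clock was called in all nuclei or in the excitatory or inhibitory sums (median log2 fold change -0.05 in all nuclei). None of the 10 activity-induced genes was called in these sums, with a median of 0.29 in all nuclei, and Fos had a log2 fold change of 0.45 with an SE of 1.88. Of 10 genes induced by glucocorticoids, hormones that also drive Per1, none was called in all nuclei (median 0.17). All 10 were lowest in non-pregnant replicate 2 there, as were 9 in the excitatory and 7 in the inhibitory sum. The share of all genes lowest in that library is not given for any list. Tsc22d3 was called in excitatory neurons, at 2.31 and 2.91 CPM in pregnant libraries, against 1.44 and 1.17 CPM in non-pregnant libraries (log2 fold change 0.99, SE 0.190, adjusted p = 0.0447 by edgeR), and it was named after its values were seen. Under the alternatives it kept the call in 6, DESeq2 among them, and lost it in 3. Those 3 include the fits without pregnant replicate 1 (log2 fold change 1.10) and without pregnant replicate 2 (0.85). Tsc22d3 was called in no single cell type. In the excitatory sum a change in the mix of cells and a change of RNA within cells cannot be told apart. In single types Zbtb16 was called in L5 ET neurons (log2 fold change 0.61, SE 0.118, adjusted p = 0.00667 by edgeR), beside 2.99% of genes. Sgk1 was called in L5/6 NP neurons (0.66, SE 0.172, adjusted p = 0.0266 by edgeR), beside 3.38% of genes. Both were named after their values were seen, as Tsc22d3 was. Zbtb16 lost the call under 1 alternative, without pregnant replicate 1, where its log2 fold change was 0.45. Sgk1 kept the call under 5 alternatives and lost it under 5. Among these losses were the fits without non-pregnant replicate 1 (0.52), without pregnant replicate 1 (0.56) and without the doublet-like subset (0.56, adjusted p = 0.163 by edgeR). Of the cold-inducible RNA-binding genes Cirbp and Rbm3, both were lowest in non-pregnant replicate 2 in all nuclei, against 1 in the inhibitory sum, and neither was called.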

How the data were processed

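Single-nucleus RNA was sequenced from 2 pregnant and 2 non-pregnant cortex libraries. The deposited matrices hold UMI counts per gene and nucleus, made by the authors with Cell Ranger 10.0.0 against GRCm39, per the submitters' processing notes. From these counts, nuclei with at least 500 genes and at most 5% mitochondrial UMIs were kept, and the 5% with the highest doublet score were removed. In a check on non-pregnant replicate 1, 31.0% of 342 hidden simulated doublets and 3.70% of real nuclei were marked, so doublets remain. Nuclei were clustered with scanpy 1.11.5 (2000 variable genes, 40 principal components, resolution 1) and named from marker lists. UMIs were summed per library and cell type, and tested with edgeR 4.0.16 (TMM scaling, minimum count 10, quasi-likelihood, Benjamini-Hochberg adjustment within each set of nuclei). DESeq2 1.42.0 was an alternative. On simulated counts for all nuclei (20667 genes), changes of 0.5, 1 and 2 in log2 were recovered for 36%, 82% and 98.0% of altered genes, with 7 false calls. Each simulated gene was given the spread usual for its level. These rates thus do not cover genes with a wider gap between libraries, such as Per1 and Per2. All 10 clock genes are named, and genes outside them come from 5 lists or are the 2 genes with the highest correlation to each member across types. The members and lists were chosen with earlier results of these data known. Per3 overlaps Camta1 on the same strand by 41014 bases, Cry2 overlaps D930015M05Rik on the opposite strand, and Nr1d1 and Dbp overlap Thra and Sphk2 at their ends. The labels do not say how reads there were assigned, so these counts are uncertain to that degree.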

Additional observations from a re-analysis of the deposited data

Results flagged for a closer look

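In 6 of the clock genes both pregnant libraries lay above both non-pregnant libraries in some cell types and below them in others. The difference between those types was not tested, and the counts in each direction stand beside 20.6% of all gene and type pairs above and 17.3% below. These shares are per pair of gene and type. The share of all genes that show both directions is not given, so the count of 6 genes has no background and is a description only. Npas2 was above in 4 types (L5 ET, L5 IT, L5/6 NP, and Sncg and Lamp5) and below in 2 (L2/3 IT and Sst). In L5/6 NP the groups overlap without the doublet-like nuclei found in pregnant libraries alone, with 43.3 and 26.2 CPM in pregnant libraries, against 42.1 and 26.6 CPM in non-pregnant libraries. Nr1d1 was above in 1 (Pvalb) and below in 5, all excitatory (L2/3 IT, L4/5 IT, L5 ET, L6 CT and L6 IT). Nr1d2 was above in 4 types or clusters and below in 1 (Sncg and Lamp5). Per2 was above in 1 (astrocytes) and below in 3 (Sncg and Lamp5, Sst and Vip). Per3 was above in 3 (astrocytes, L5/6 NP and Sst) and below in 1 (L6 CT). Cry1 was above in 2 (astrocytes and Vip) and below in 1 (Sst).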

How the results depend on the processing

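Of 120 log2 fold changes of clock genes in all nuclei under alternatives, 109 kept their direction and side of the threshold and 8 reversed. Of all 120, 5 passed, Per1 and Per2 with either non-pregnant library left out and Dbp without non-pregnant replicate 1. Leaving out 1 library at a time gave 0 to 3 clock genes called in all nuclei, 0 to 18 pairs within cell types, 0 to 1902 genes in all, and 0 to 1 clock gene in the contrasts between classes. It moved Per1 between -0.44 and 1.07, Per2 between -0.35 and 0.28 (0.07 without pregnant replicate 2), Cry1 between -0.12 and 0.25 (-0.08 without pregnant replicate 1), Cry2 between -0.24 and 0.13, and the phase-like index difference between -0.20 and 0.18. With equal nuclei per cell type Per2 was at 0.017, Cry2 at 0.027 and 38 genes were called. Without a filter on low counts 624 genes were called in all nuclei. In that setting 3 of 160 clock gene pairs within types were called, beside 1.14% of all gene and type pairs. A clock gene was called in 1 contrast there (Nr1d1 in inhibitory neurons), for which the share of all genes is not given. DESeq2 called 544 genes and 0 pairs within types. With equal nuclei per fine cluster 0 pairs were called and Npas2 in L5/6 NP was at -0.19, and 0 pairs were called without doublet-like fine clusters, an alternative chosen after seeing the data. Some alternatives hold fewer libraries or nuclei by construction, and the cause of the shifts was not tested for any of them. The labels do not say that replicate numbers pair the libraries, and same-numbered libraries did not deviate together (r = -0.0246 in all nuclei). A replicate block called 944 genes and no clock gene in all nuclei. It did change the call of Bhlhe41 in all nuclei (log2 fold change -0.35, adjusted p = 0.0350 by edgeR). In simulated counts for all nuclei, 36% of changes of 0.5 in log2 were recovered, for genes given the spread usual for their level.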
